A study of Mus musculus with 2 samples.

Results

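The Foxp3+ cells of visceral adipose tissue (VAT) described here are T cells that express Foxp3, the transcription factor that defines regulatory T (Treg) cells. A cell was taken as a member when it held at least 1 unique molecular identifier (UMI, 1 counted mRNA molecule) of Foxp3 and at least 1 of Cd3e, Cd3d and Cd3g together. It also had to hold fewer than 5 UMIs of C1qa, C1qb and C1qc together, none of Xcr1 or Clec9a and at most 1 of Cd79a, which keeps out macrophages, dendritic cells and B cells. Of the 25198 cells with at least 500 gene UMIs, at least 200 genes and at most 25% mitochondrial UMIs, 470 were members, 318 of 12474 in NW and 152 of 12724 in ABX. Because measured values of these genes chose the cells, their levels and the number of members are a description.

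The study compared wildtype C57BL/6 mice aged 15 weeks on normal drinking water (NW) with mice given antibiotics (ABX), which the methods name as ampicillin, streptomycin, colistin and vancomycin, alone or as a mixture, in the drinking water. CD45+ cells, that is blood-derived cells, were taken from VAT with magnetic beads, labelled with barcoded antibodies (AbSeq) and profiled as 1 BD Rhapsody whole-transcriptome library per condition. The number of mice behind each library is not given in the sources used here, so the effect of antibiotics cannot be told apart from a difference between mice or libraries, and the conditions are set side by side without a test. Values are whole UMI counts, all intervals are exact 95% intervals or 95% counting intervals of a ratio, and they cover counting error only.

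Treg cells restrain other immune cells, through receptors such as CTLA-4, through the cytokine IL-10 and by taking up IL-2 with the high-affinity receptor chain CD25. Fat of lean mice holds a specialised Treg population that depends on the nuclear receptor PPARγ and on the cytokine IL-33, sensed through its receptor ST2, the product of Il1rl1. These VAT Treg cells are known to carry GATA3, KLRG1 and the chemokine receptors CCR2 and CCR3, and to make amphiregulin (Areg), a growth factor of tissue repair.

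The promoter windows of Il1rl1 and Ccr3 are shown because these genes mark VAT Treg cells and were lower in the ABX cells (values below). Sequences are from RefSeq for GRCm38.p6, 250 bases before to 50 after an annotated start, with the GATA letters AGATAA and the nuclear receptor half-site AGGTCA in capitals where they occur on either strand. The Il1rl1 gene lies on the plus strand of chromosome 1 from 40429570 to 40465415, and Ccr3 on the plus strand of chromosome 9 from 124021972 to 124031689.
Il1rl1, chr1:40429320-40429619, plus strand: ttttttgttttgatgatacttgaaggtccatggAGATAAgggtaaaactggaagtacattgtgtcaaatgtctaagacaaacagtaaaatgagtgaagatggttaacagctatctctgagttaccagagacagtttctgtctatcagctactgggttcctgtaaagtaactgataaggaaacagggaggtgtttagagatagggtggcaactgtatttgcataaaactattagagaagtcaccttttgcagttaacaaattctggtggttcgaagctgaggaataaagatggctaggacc
Il1rl1, chr1:40439379-40439678, plus strand: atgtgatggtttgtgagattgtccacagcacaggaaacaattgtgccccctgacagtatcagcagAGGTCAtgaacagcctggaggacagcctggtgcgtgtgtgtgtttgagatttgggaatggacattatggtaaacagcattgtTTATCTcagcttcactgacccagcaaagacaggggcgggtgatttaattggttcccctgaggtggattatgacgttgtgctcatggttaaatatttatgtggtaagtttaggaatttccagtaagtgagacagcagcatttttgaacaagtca
Ccr3, chr9:124021721-124022020, plus strand: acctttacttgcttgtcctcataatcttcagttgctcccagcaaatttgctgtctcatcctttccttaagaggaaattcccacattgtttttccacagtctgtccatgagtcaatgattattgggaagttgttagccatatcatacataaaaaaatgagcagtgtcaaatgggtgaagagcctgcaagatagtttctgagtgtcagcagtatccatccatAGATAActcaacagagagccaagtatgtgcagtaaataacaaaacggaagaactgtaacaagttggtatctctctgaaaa

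Of the 16 genes of a VAT Treg list, 12 had promoter windows in the table. AGATAA occurred in 4 of the 12 (Il1rl1, Ccr2, Ccr3 and Il9r), against 12.7% of all 27025 genes. AGGTCA occurred in 4 of the 12 (Pparg, Il1rl1, Cd36 and Nfil3), against 18.1% of all genes. The direct repeat AGGTCANAGGTCA, the form bound by PPARγ with its partner RXR, was in 0 of the 12 and in 0.0481% of all genes, and AAAGGTCA, a form bound by NR4A receptors that contains AGGTCA, was in 0 of the 12 and in 1.70% of all genes. Such matches describe letters in these windows and nothing about binding.

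The Foxp3+ cells were shallower in ABX than in NW, with medians of 2742.5 and 3228.5 UMIs and 1427.5 and 1585 genes per cell, and their median mitochondrial share was 6.09% in ABX and 5.29% in NW. They were compared with Foxp3-negative CD4 T cells, which met the same exclusions, had a Cd3 UMI and a Cd4 UMI and had none of Foxp3, Cd8a, Cd8b1, Trdc or Ncr1, 412 cells in NW (median 3241.5 UMIs) and 380 in ABX (median 3226.5 UMIs). Macrophages, defined by at least 5 C1q UMIs (7268 and 5800 cells), gave a background level of detection (median depth 6299 in NW, 4559.5 in ABX). Whether free RNA, doublets or their own expression gave that level was not tested. The libraries shared 371 barcodes, of which 1 was a member in both.

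Foxp3 UMIs per member ranged up to 17 in NW and 20 in ABX, with medians of 4 and 3. Just inside the threshold, with 1 Foxp3 UMI, were 49 NW and 32 ABX cells, 53 and 32 cells had 2, and 216 and 88 had 3 or more. Before the other limits, 634 NW and 261 ABX cells had a Foxp3 UMI, of which 487 and 201 had a Cd3 UMI and 361 and 174 of those had fewer than 5 C1q UMIs. A Foxp3 UMI was found in 3.05% of macrophages in NW and 0.914% in ABX, the background against which the cells with 1 Foxp3 UMI stand.

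The other Treg genes matched the label. Ikzf2, which encodes Helios, a transcription factor of many Treg cells, was detected in 85.5% of NW (95% interval 81.2% to 89.2%) and 84.9% of ABX members (78.2% to 90.2%), against 13.8% and 19.5% of Foxp3-negative CD4 T cells and 7.04% and 5.21% of macrophages. Ctla4, the inhibitory receptor that competes for B7 ligands, was detected in 72.6% of NW and 51.3% of ABX members and in 10.4% and 9.21% of Foxp3-negative cells, respectively. Il2ra, which encodes CD25, was detected in 81.4% and 65.8% of members and in 28.9% and 20% of Foxp3-negative cells. Cells with 1 Foxp3 UMI already carried Ikzf2 in 73.5% of NW and 68.8% of ABX cells. Il1rl1 detection stood at 59.2%, 81.1% and 89.4% of NW cells with 1, 2 and 3 or more Foxp3 UMIs, and at 34.4%, 65.6% and 54.5% of ABX cells. The macrophage gene Lyz2 was detected in 63.3%, 58.5% and 68.5% of those NW cells and in 63.3% of Foxp3-negative cells, so it did not separate the classes of Foxp3 count in NW.

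**Figure D1:**
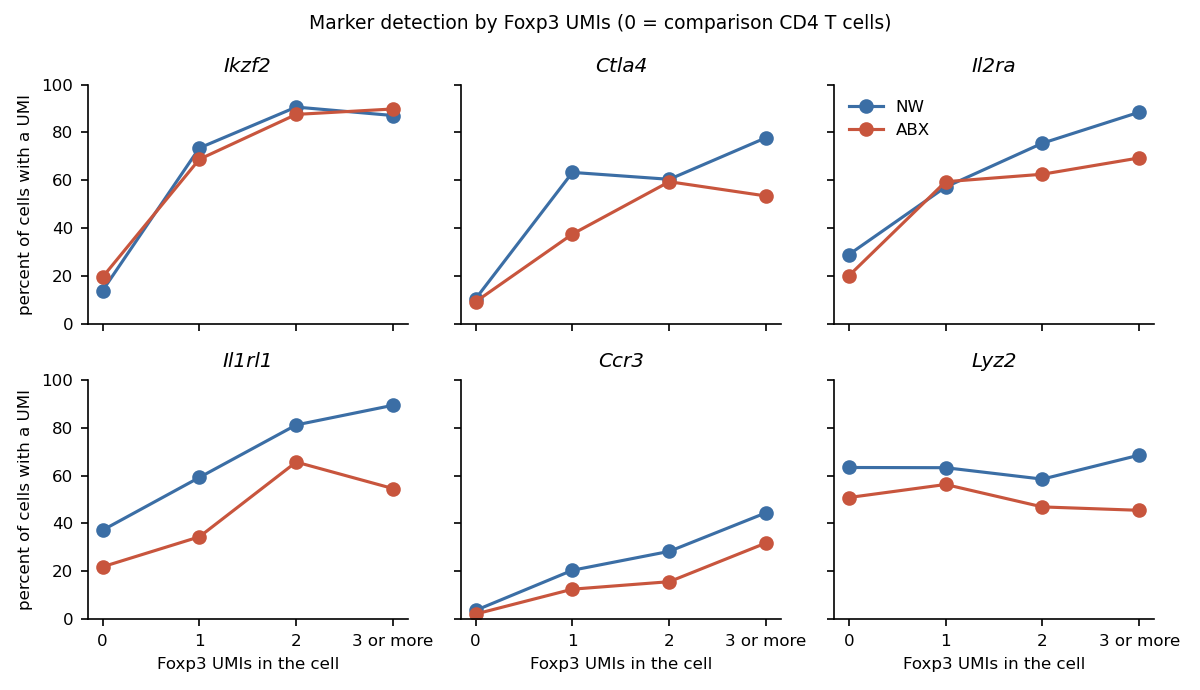
Percent of cells with a UMI of 6 genes (vertical axis) by the number of Foxp3 UMIs in the cell (horizontal axis, 0 being the Foxp3-negative CD4 T cells), in NW (blue) and ABX (red). Ikzf2 lay at 13.8% and 19.5% in cells with 0 and at 73.5% and 68.8% in cells with 1 Foxp3 UMI, while the macrophage gene Lyz2 was between 45.5% and 68.5% in every class.

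Against the Foxp3-negative CD4 T cells, 13 of 16 core Treg genes with at least 20 UMIs were at least 1.5-fold higher in NW members (median log2 ratio 1.86), where 12.3% of all 9108 genes were. In ABX 14 of 16 were (median 1.82), where 13.9% of 8502 genes were, and no core gene was 1.5-fold lower in either library. Foxp3 itself was left out of the list. Summed over cells, Ikzf2 stood at 1132 CPM (UMIs of a gene per 1e6 UMIs of all genes in the summed cells) in NW members and 102 CPM in Foxp3-negative cells, a log2 ratio of 3.47 (3.22 to 3.72), and at 1215 and 159 CPM in ABX, 2.93 (2.71 to 3.16). Ikzf4, which encodes the related factor Eos, had log2 ratios of 2.71 in NW and 3.44 in ABX. The co-stimulatory receptors followed, with Tnfrsf4 (OX40) at 2.38 and 2.16, Tnfrsf18 (GITR) at 1.55 and 1.57 and Tnfrsf9 (4-1BB) at 2.43 and 3.79 on the log2 scale.

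The 15 genes highest in members over Foxp3-negative cells by the smaller of both libraries' ratios were Frmd5, Il10, Bicd1, Ccr1, Ccr3, AA467197, Ctla4, Ikzf2, Klrg1, Ikzf4, Gzmb, Rapsn, Sdc4, Pcyt1a and Lamc1. Frmd5 led with 360 CPM in NW members and 9.62 CPM in Foxp3-negative cells, and with 154 and 1.45 CPM in ABX, the last value resting on 2 UMIs. Il10, the anti-inflammatory cytokine, stood at 110 against 3.44 CPM in NW (log2 ratio 5.0, 3.74 to 6.65) and at 34.2 against 2.18 CPM in ABX (3.97, 2.20 to 6.38). Gzmb, the cytotoxic protease granzyme B, had log2 ratios of 2.69 (2.26 to 3.15) and 4.23 (3.08 to 5.61). Pcyt1a, an enzyme of phosphatidylcholine synthesis, had 3.84 in NW and 2.47 in ABX. The smallest ratio in the set was 2.43, of Lamc1 in NW.

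Genes of resting lymphoid-tissue T cells and of effector cytokines were on the other side. Tcf7, a transcription factor of naive and memory-like T cells, stood at 51.6 CPM in NW members and 713 CPM in Foxp3-negative cells (log2 ratio -3.79, -4.19 to -3.42), and at 198 and 800 CPM in ABX (-2.02, -2.32 to -1.73). Of the resting genes with at least 20 UMIs, 6 of 10 in NW and 6 of 11 in ABX were at least 1.5-fold lower in members, against backgrounds of 13% and 12.2% of all genes. Every effector cytokine with 20 UMIs was lower, 6 of 6 in NW and 4 of 4 in ABX. Ifng was at 25.4 against 81.8 CPM in NW and 5.70 against 66.8 CPM in ABX, and Cd40lg, the helper ligand of CD4 T cells, at 14.4 against 104 CPM and 7.61 against 98.0 CPM. Il17a had 0 UMIs in the members and in the Foxp3-negative cells of both libraries.

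The VAT Treg genes were higher in members than in Foxp3-negative cells for 12 of 15 genes in NW and 8 of 14 in ABX, with 0 and 1 lower. Klrg1, an inhibitory receptor of differentiated lymphocytes, stood at 976 against 120 CPM in NW and 424 against 61.0 CPM in ABX. Il1rl1 was at 1717 against 705 CPM in NW (log2 ratio 1.28, 1.17 to 1.39) and 844 against 334 CPM in ABX (1.34, 1.15 to 1.53), so ST2 mRNA was also held by Foxp3-negative cells. Pparg was at 60.0 against 54.3 CPM and at 36.1 against 31.2 CPM, with both intervals of the ratio including no difference (-0.34 to 0.63 and -0.65 to 1.02).

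Foxp3+ cells made up 2.55% of all NW cells (2.28% to 2.84%) and 1.19% of all ABX cells (1.01% to 1.40%), a ratio of 0.469, which is -0.329 on the log10 scale (-0.412 to -0.246). Among the CD4 T cells, that is members plus Foxp3-negative CD4 T cells, they were 43.6% of 730 cells in NW (39.9% to 47.2%) and 28.6% of 532 in ABX (24.8% to 32.6%), a log10 ratio of -0.183 (-0.252 to -0.115). Thinning each cell to 1000 UMIs gave -0.327 and -0.187 for these ratios. The rule was uneven: a Cd4 UMI and no UMI of Cd8a, Cd8b1, Trdc or Ncr1 were required of Foxp3-negative cells, not of members. By Foxp3 count, a Cd4 UMI was found in 59.2% to 75.9% of NW and 56.2% to 75% of ABX members. With CD4 and TCRβ antibody limits on both sets in place of the Cd4 UMI, the shares of CD4 T cells were 36.4% and 19.0%. Antibody totals were lower in ABX members (values below). UMIs of C1qc were found in 53.1% of NW and 32.9% of ABX members, so a stricter limit removed more NW than ABX cells. With no UMI of any C1q gene, Cd79a, Cd8a, Cd8b1, Trdc or Ncr1, the members were 65 in NW and 57 in ABX, and their share of all cells was 0.521% and 0.448%, a log10 ratio of -0.0657 (-0.220 to 0.0884). The share of CD4 T cells under the same limit was 38.2% and 27.3%, a log10 ratio of -0.147 (-0.274 to -0.0197). The part that macrophage RNA in these cells has in the lower share of all cells was not tested.

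Members with an Il1rl1 UMI (ST2+) and without one (ST2-) stood apart in how their numbers compared, with 265 ST2+ and 53 ST2- cells in NW and 80 and 72 in ABX. ST2+ members were 2.12% of all NW cells (1.88% to 2.39%) and 0.629% of ABX cells (0.499% to 0.782%), and the log10 ratio was -0.529 (-0.637 to -0.421). ST2- members were 0.425% (0.318% to 0.555%) and 0.566% (0.443% to 0.712%), a log10 ratio of 0.124 (-0.0292 to 0.278), an interval that includes no difference. Of the CD4 T cells, ST2- members were 7.26% in NW (5.49% to 9.39%) and 13.5% in ABX (10.7% to 16.7%), and the log10 ratio, 0.270 (0.124 to 0.417), had an interval above 0. ST2+ members were 36.3% and 15.0% of the CD4 T cells. Within the members, 83.3% (78.8% to 87.3%) were ST2+ in NW and 52.6% (44.4% to 60.8%) in ABX, with -0.200 (-0.268 to -0.131) as the log10 ratio, and thinned to 1000 UMIs per cell these shares were 67.5% and 38.6%. With at least 2 Il1rl1 UMIs required, they were 76.1% and 39.5%. Among Foxp3-negative CD4 T cells the ST2+ share was 37.1% in NW and 21.8% in ABX. Among macrophages, the background, it was 18.0% and 14.7% (5.03% and 4.41% thinned).

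**Figure D2:**
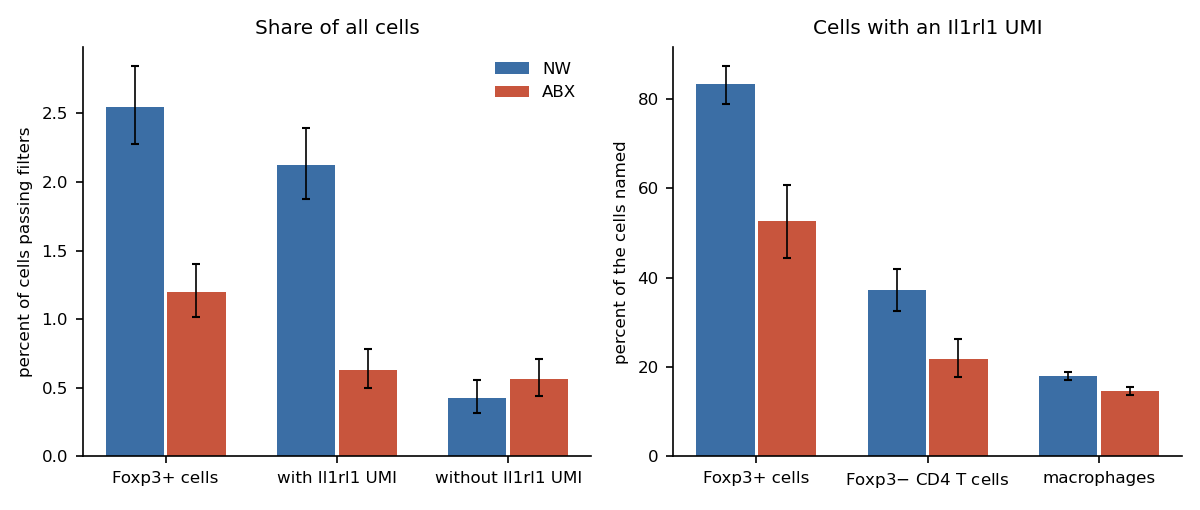
Left, percent of all cells passing filters that were Foxp3+ cells, and those with and without an Il1rl1 UMI; right, percent of Foxp3+ cells, Foxp3-negative CD4 T cells and macrophages with an Il1rl1 UMI. Bars are the NW (blue) and ABX (red) libraries and whiskers exact 95% binomial intervals, and the ST2+ cells stood at 2.12% in NW and 0.629% in ABX while the ST2- cells stood at 0.425% and 0.566%.

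Inside each library the ST2+ members were compared with the ST2- members. Of the VAT Treg genes with at least 20 UMIs, Il1rl1 included, 13 of 15 in NW were at least 1.5-fold higher and 1 lower in ST2+ cells, against 21% and 17.4% of 7175 genes, and in ABX 8 of 10 were higher and 0 lower, against 16.4% and 14.6% of 4769 genes. Il1rl1 defines the split, so its place among the higher genes in these counts was fixed in advance. Besides Il1rl1, Gata3, Klrg1, Ccr1, Ccr2, Ccr3, Il9r and Dgat1 were at least 1.5-fold higher in both libraries. Gata3, the transcription factor of type 2 immunity, stood at 919 CPM in ST2+ and 285 CPM in ST2- members of NW (log2 ratio 1.69, 1.25 to 2.16), and at 795 and 192 CPM in ABX (2.05, 1.58 to 2.54). Klrg1 stood at 1088 and 233 CPM in NW (2.22, 1.74 to 2.74) and at 603 and 201 CPM in ABX (1.59, 1.11 to 2.08), and a Klrg1 UMI was found in 88.3% of ST2+ against 20.8% of ST2- cells in NW and 81.2% against 19.4% in ABX. Ccr3, the eotaxin receptor, had log2 ratios of 1.49 and 2.22, Il2ra of 1.55 and 1.26, and the lipid synthesis enzyme gene Dgat1 of 0.98 and 1.53. Il10 had 129 UMIs in ST2+ and 1 in ST2- members of NW, and 14 and 4 in ABX. In CPM, Foxp3 and Ikzf2 did not follow the split, with log2 ratios of 0.16 and -0.06 for Foxp3 and -0.06 and -0.11 for Ikzf2, all with intervals that include 0. By detection Ikzf2 did, with a UMI in 89.1% of ST2+ against 67.9% of ST2- cells in NW and 90% against 79.2% in ABX. The ST2- cells were shallower, with median UMIs of 2689 against 3392 in NW and 2625 against 2790.5 in ABX.

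The 10 genes highest in ST2+ over ST2- members besides Il1rl1 were Ccr1, Npnt, Ltb4r1, AA467197, Pcsk1, Frmd5, Glul, Ctla2a, Anxa1 and Irs2. They were ranked by the smaller ratio of both libraries, Npnt and Pcsk1 by the only ratio that could be formed. Ccr1 and Ltb4r1 encode receptors for inflammatory chemokines and for leukotriene B4, and had 161 and 248 UMIs in ST2+ against 3 and 6 in ST2- members of NW, and 32 and 40 against 1 and 2 in ABX. Glul, which encodes glutamine synthetase, stood at 1275 and 311 CPM in NW (log2 ratio 2.04, 1.62 to 2.48) and at 723 and 192 CPM in ABX (1.91, 1.44 to 2.41). Pcsk1, a prohormone convertase, had 99 UMIs in ST2+ and 0 in ST2- members of NW, and 7 and 1 in ABX. It was ranked by its ABX ratio alone (2.49, -0.47 to 7.98), whose interval includes 0. Npnt had 103 and 2 UMIs in NW and 7 and 0 in ABX, so its ABX ratio could not be formed.

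On the side of the ST2- members, the 10 genes were Tcf7, Setd1b, Prkca, Zfp51, Bcl2, F2rl1, P2rx7, Gtf2a2, Izumo1r and Ms4a6b. Tcf7 stood at 188 CPM in ST2- and 31.1 CPM in ST2+ members of NW (log2 ratio -2.59, -3.37 to -1.82) and at 355 and 72.0 CPM in ABX (-2.30, -3.07 to -1.60). Izumo1r, which encodes the folate receptor FR4 of Treg cells, had log2 ratios of -1.05 and -1.45, and Bcl2, the survival factor, of -1.12 and -1.29. Of the resting lymphoid-tissue genes, 5 of 9 in NW and 6 of 9 in ABX were at least 1.5-fold lower in ST2+ cells. Cxcr3, the receptor of type 1 inflammatory chemokines, had 37 and 45 UMIs in NW (-3.02, -3.69 to -2.36) and 35 and 50 in ABX (-0.83, -1.50 to -0.18). A Cxcr3 UMI was found in 8.68% of ST2+ against 39.6% of ST2- cells in NW and in 15% against 36.1% in ABX. Whether the ratios of the libraries differ was not tested. Bcl2 and Ms4a6b in NW turned to 0.16 and 0.36 with no UMI of other lineages.

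**Figure D3:**
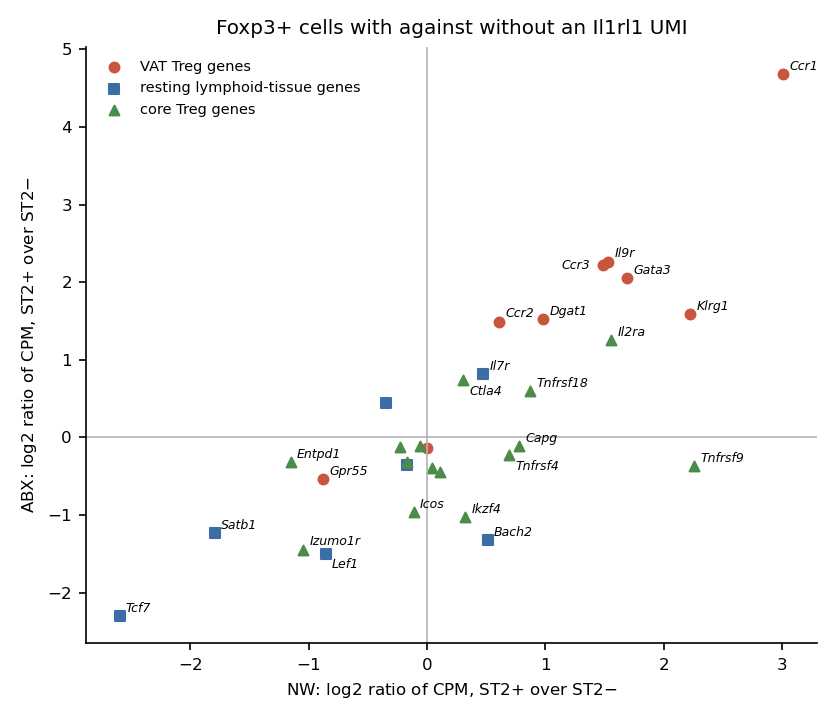
Log2 ratio of CPM in ST2+ over ST2- Foxp3+ cells in NW (horizontal axis) and in ABX (vertical axis) for VAT Treg genes (circles, Il1rl1 left out), resting lymphoid-tissue genes (squares, 1 gene not shown) and core Treg genes (triangles) with at least 20 UMIs in each library, labelled where either ratio passes 0.55 in size. Gata3 at 1.69 and 2.05 and Klrg1 at 2.22 and 1.59 lie at the upper right, and Tcf7 at -2.59 and -2.30 at the lower left.

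Within all members, ABX was next compared with NW gene by gene, on UMIs summed over the cells. Of 3204 genes with at least 100 UMIs, 131 (4.09%) were at least 1.5-fold higher and 192 (5.99%) at least 1.5-fold lower in ABX, and the median log2 ratio was 0.01. With totals that leave out mitochondrial and ribosomal genes the counts were 165 and 167, so the excess of lower genes depended on the scaling. Among 8207 genes with at least 20 UMIs, used for the lists below, these shares were 11.7% and 11.9% and the median was 0.03. Members were chosen by Foxp3, whose level was 1240 CPM in NW and 1173 CPM in ABX (log2 ratio -0.08). The core Treg genes stayed close to the background, with 3 of 17 higher and 2 lower (median -0.14). Ikzf2 stood at 1132 CPM in NW and 1215 CPM in ABX (log2 ratio 0.10, -0.04 to 0.24). The exceptions were Ctla4, at 647 CPM in NW and 287 CPM in ABX (-1.17, -1.43 to -0.92), and Il2ra, at 1269 and 704 CPM (-0.85, -1.02 to -0.69), and, in the other direction, Izumo1r at 125 and 297 CPM (1.25, 0.91 to 1.58), Nt5e and Gpr83. Nt5e, which encodes the ectoenzyme CD73, stood at 34.7 and 87.5 CPM (1.34, 0.70 to 1.98).

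The VAT Treg genes were lower in ABX members. Of 15 with at least 20 UMIs, 12 were at least 1.5-fold lower and 1 (Gpr55) higher, with a median log2 ratio of -0.92. Il1rl1 stood at 1717 CPM in NW and 844 CPM in ABX, with 2031 and 444 UMIs (log2 ratio -1.02, -1.18 to -0.88). Klrg1 was at 976 and 424 CPM (-1.20, -1.42 to -1.0), Gata3 at 836 and 527 CPM (-0.67, -0.86 to -0.47), and Ccr2, the monocyte chemokine receptor, at 1187 and 626 CPM (-0.92, -1.10 to -0.75). Ccr3 stood at 233 and 129 CPM (-0.85, -1.26 to -0.46), but at a log2 ratio of 0.02 among the 65 and 57 cells with no UMI of other lineages. Pparg, the regulator of this population, was low, at 60.0 and 36.1 CPM on 71 and 19 UMIs, and its interval reached no difference (-0.73, -1.55 to 0.01). Gpr55, a lysolipid receptor, had 37 and 26 UMIs (0.66, -0.12 to 1.42).

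A sum over all members cannot tell fewer ST2+ cells from less RNA per ST2+ cell, so both classes were also compared on their own. This split cannot fully tell them apart either. The classes rest on an Il1rl1 UMI, so a cell with less Il1rl1 RNA or lower depth can fall into the ST2- class. Among ST2+ members alone, 6 of 15 VAT Treg genes were at least 1.5-fold lower in ABX and 0 higher, with a median of -0.50, where 14.6% of 7500 genes were lower and 14.3% higher. Among ST2- members 3 of 7 were lower and 0 higher, with a median of -0.57, where 15.2% of 3732 genes were lower and 16.1% higher. In ST2+ members the ratio of Klrg1 was -0.85 (-1.09 to -0.62), that of Ccr2 -0.50 (-0.70 to -0.31) and that of Gata3 -0.21 (-0.42 to just under 0), each smaller in size than over all members. Foxp3-negative CD4 T cells held the same direction, with 6 of 13 VAT Treg genes lower and 1 higher in ABX (median -0.56, background 9.18% and 7.8% of 9222 genes), and Il1rl1 at 705 and 334 CPM in them.

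**Figure D4:**
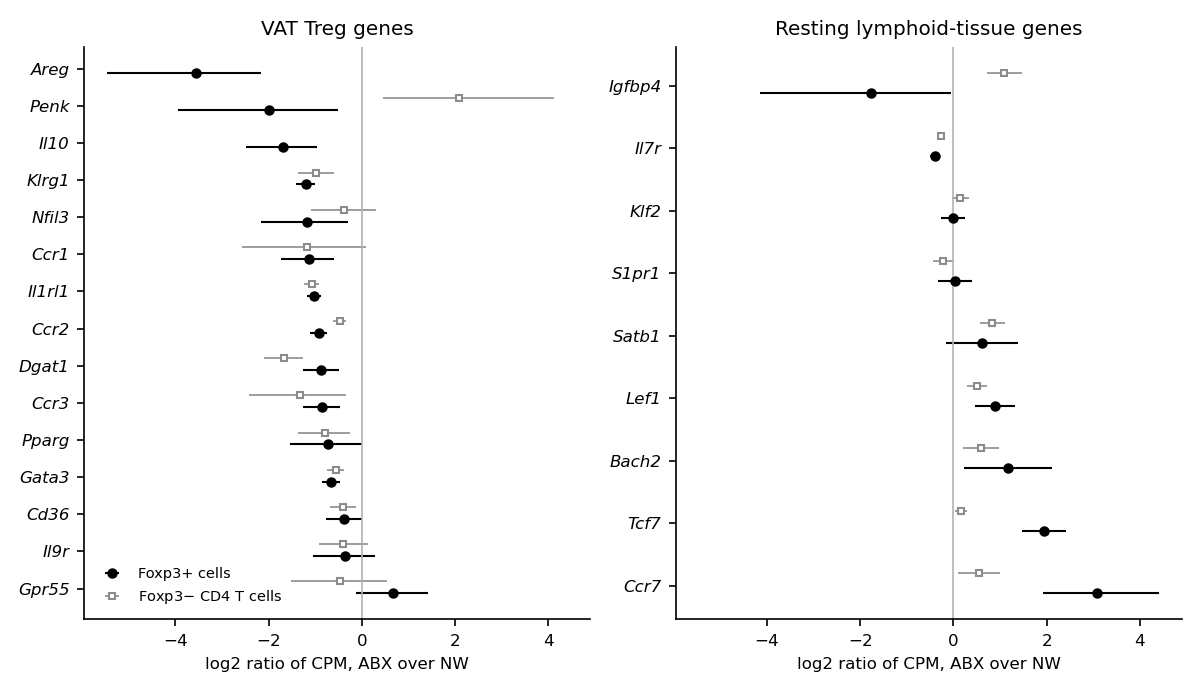
Log2 ratio of CPM in ABX over NW (horizontal axis) with its exact 95% interval for VAT Treg genes (left) and resting lymphoid-tissue genes (right, 1 gene not shown) with at least 20 UMIs, in Foxp3+ cells (black circles) and Foxp3-negative CD4 T cells (grey squares, where at least 20 UMIs were counted in them). Il1rl1 lay at -1.02 in the Foxp3+ and -1.08 in the Foxp3-negative cells, while Tcf7 lay at 1.94 and 0.17.

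Suppressive effectors were lower for 7 of 13 genes and higher for 2 (median -0.61). Their summed level was 2814 CPM in NW and 1725 CPM in ABX members (log2 ratio -0.71, -0.81 to -0.60). Foxp3-negative CD4 T cells held the same direction, at 1065 and 676 CPM (-0.66, -0.77 to -0.54). Macrophages stood at 919 and 716 CPM (-0.36), so the lower level was not particular to the members. Areg had 106 UMIs in 46 of 318 NW cells and 4 UMIs in 1 of 152 ABX cells, that is 89.6 and 7.61 CPM (log2 ratio -3.56, -5.46 to -2.16), and was found in 0.881% and 0.138% of macrophages. Il10 stood at 110 and 34.2 CPM (-1.68, -2.48 to -0.97), in 14.2% and 7.89% of members, and Gzmb at 227 and 95.1 CPM (-1.25, -1.72 to -0.81). Fgl2, which encodes a secreted inhibitor of dendritic cells, stood at 872 and 529 CPM (-0.72, -0.92 to -0.53). Penk, the precursor of enkephalins, had 36 UMIs in NW and 4 in ABX. Genes of TGF-β activation were few in counts, with Itgb8 at 23 and 25 UMIs (1.29, 0.41 to 2.17), Lrrc32 at 30 and 16 UMIs (0.26, -0.71 to 1.18) and Tgfb1 at 55 and 16 UMIs (-0.61, -1.51 to 0.21). Ebi3 and Entpd1 had log2 ratios of 0.15 and 0.28 with intervals that include 0.

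Below the surface receptor ST2, the IL-33 pathway was mostly level, with 3 of 11 genes at least 1.5-fold lower and 0 higher (median 0.10). Besides Il1rl1 these were the NF-κB feedback genes Tnfaip3, at 672 and 357 CPM (-0.91, -1.15 to -0.68), and Nfkbia, at 1232 and 753 CPM (-0.71, -0.87 to -0.55). The signalling genes Irak1 and Nfkb1 had log2 ratios of 0.10 and 0.16 with intervals that include 0. In the IL-2 pathway 2 of 14 genes were lower (Il2ra and Cish) and 2 higher (Bcl2, and Stat5a with an interval that includes 0). Il2rb, the signalling chain of the receptor, stood at 530 and 753 CPM (0.51, 0.32 to 0.69). Cish, a feedback target of STAT5, stood at 235 and 135 CPM (-0.80, -1.20 to -0.42). Bcl2 stood at 48.2 and 135 CPM (1.49, 0.96 to 2.02). Among the other cytokine receptors, Il18r1 was at 60.0 and 156 CPM (1.38, 0.90 to 1.86), with log2 ratios of 1.86 in ST2+ and -0.26 in ST2- members.

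Among 23 migration and adhesion genes, 8 were lower and 5 higher. Those lower included the tissue homing receptors Cxcr6, at 391 and 202 CPM (-0.95, -1.27 to -0.65), and Ccr4, at 83.7 and 41.8 CPM (-1.0, -1.74 to -0.32), and the retention genes Cd69, at 220 and 116 CPM (-0.92, -1.35 to -0.51), and Itgae (-1.18, -2.21 to -0.27), beside Ccr1, Ccr2 and Ccr3. Those higher included Cxcr5, Ccr7, Cxcr3 and Gpr183, receptors that lead cells to lymphoid tissue or inflamed sites. Cxcr5, the B cell follicle receptor, had 3 UMIs in 0.629% of NW cells and 33 UMIs in 13.8% of ABX cells (4.63, 2.96 to 6.98). Cxcr3 stood at 69.3 and 162 CPM (1.22, 0.77 to 1.68), in 13.8% and 25% of members, with macrophages at 11.5% and 8.71%. Ccr7 had 8 and 30 UMIs (3.08, 1.92 to 4.41), of which 1 ABX cell held 10.

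Of 22 transcription factor genes with at least 20 UMIs, 5 were lower (Gata3, Irf4, Pparg, Nfil3 and Nr4a1) and 5 higher (Tcf7, Lef1, Bach2, Satb1 and Tbx21). Irf4, which drives effector Treg cells, had 49 UMIs in NW and 6 in ABX (-1.86, -3.37 to -0.64). Its partner gene Batf and the effector Treg factor gene Prdm1 had log2 ratios of -0.11 and -0.03, with intervals that include 0. Of 13 co-stimulatory and inhibitory receptor genes, Pdcd1, Ctla4 and Klrg1 were lower and Cd83 higher. Pdcd1, which encodes PD-1, stood at 330 and 167 CPM (-0.98, -1.33 to -0.64). Of 9 T cell genes, 1 (Lck) was higher and 0 lower, and of 3 effector cytokines with 20 UMIs 2 were lower.

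The resting lymphoid-tissue list was higher for 6 of 10 genes and lower for 1 (median 0.76), and for 5 of 11 in the Foxp3-negative CD4 T cells (median 0.55). Its summed level was not higher, at 3355 CPM in NW and 3191 CPM in ABX (log2 ratio -0.07, -0.16 to 0.01), and most of that sum was Il7r, the IL-7 receptor gene, with 2957 of 3969 UMIs in NW and 1004 of 1678 in ABX (-0.39, -0.49 to -0.28). Tcf7 stood at 51.6 and 198 CPM (1.94, 1.47 to 2.42) and was detected in 9.75% of NW and 26.3% of ABX members (3.57% and 11.9% thinned), against 4.91% and 5.57% of macrophages. Lef1, its partner, stood at 87.1 and 162 CPM (0.89, 0.46 to 1.32). Klf2 and S1pr1, which control exit from lymphoid tissue, had log2 ratios of 0.00 and 0.04. Within ST2+ members 1 of 8 of these genes was higher (median 0.31), and within ST2- members 4 of 8 (median 0.42). With no UMI of other lineages the median of the list was 0.23.

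The 10 lowest genes in ABX among those with at least 100 UMIs were Areg, Cxcl2, Ccr9, Npnt, Jchain, Pcsk1, Nr4a1, Il10, Gadd45b and Tox2. Cxcl2, a neutrophil chemokine, stood at 387 and 38.0 CPM (-3.35, -4.07 to -2.70). Ccr9, the receptor of the gut chemokine CCL25, stood at 296 and 41.8 CPM in members (-2.82, -3.51 to -2.20) and at 12.4 and 23.2 CPM in Foxp3-negative cells. Tox2 likewise stood at 185 and 62.7 CPM in members (-1.56, -2.14 to -1.03) and at 10.3 and 42.8 CPM in Foxp3-negative cells, in the opposite direction, a difference that was not tested. Nr4a1, an immediate target of T cell receptor signals, stood at 1029 and 245 CPM (-2.07, -2.34 to -1.81) and at 432 and 194 CPM in Foxp3-negative cells. The Jchain value rests on 1 cell with 392 of the 498 NW UMIs, and without the top cell of each library its log2 ratio was -0.52 (-1.13 to 0.06). The top NW cell of Ighm held 1426 of its 2366 UMIs, and that of Igkc 2481 of 4229.

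The 10 highest were Tcf7, Top2a, Bcl2, Stmn1, P2rx7, Rnf138, Il18r1, Mki67, Epsti1 and Izumo1r. P2rx7, the ATP receptor, stood at 41.4 and 112 CPM (1.44, 0.87 to 2.01). All 10 genes of the proliferation list were higher (median 1.56), and 4 of 10 in Foxp3-negative cells (median 0.27). The share of members with a Mki67 or Top2a UMI was however 17.3% in NW (13.3% to 21.9%) and 19.1% in ABX (13.2% to 26.2%), and 13.8% and 13.7% in Foxp3-negative cells. The top ABX cell of each gene held 42 of 99 Top2a, 33 of 65 Stmn1 and 52 of 150 Mki67 UMIs, and the top NW cell 29 of 68, 25 of 53 and 47 of 137. Without the top cell of each library the log2 ratios of Top2a, Stmn1 and Mki67 were 1.75, 1.37 and 1.33, close to those with it. With no UMI of other lineages, the log2 ratios of Top2a, Stmn1, Mki67 and Epsti1 turned to -1.37, -1.44, -0.99 and -0.23. Top2a, Stmn1 and Mki67, the proliferation genes among them, thus had one direction over all members and the other in the stricter set, in which the rest of the list was not examined.

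Lipid genes were lower for 4 of 11 and higher for 2. Plin2, the coat protein of lipid droplets, stood at 357 and 145 CPM (-1.30, -1.68 to -0.95) and Dgat1 at 239 and 131 CPM (-0.87, -1.27 to -0.48). Cd36, a fatty acid transporter, stood at 194 and 150 CPM, with an interval that reached no difference (-0.37, -0.76 to 0.00). Scd1 had 6 and 28 UMIs, of which 1 ABX cell held 24. Of 14 genes for sensing microbial metabolites, 6 had at least 20 UMIs, of which 2 were higher (Slc16a1 and Hdac2) and 2 lower (Rara and Ahr). Slc16a1, a transporter of short monocarboxylates, had 11 and 16 UMIs (1.71, 0.51 to 2.96), and Ahr, the aryl hydrocarbon receptor, had 21 and 6 (-0.64, -2.24 to 0.72). Several receptors and transporters were near 0, with Ffar2 at 12 and 1 UMIs, Ffar3 at 0 and 0, Hcar2 at 1 and 0 and Slc5a8 at 1 and 0, so no difference in them could be detected at this depth. The histone deacetylase genes Hdac1, Hdac2 and Hdac3 had log2 ratios of 0.32, 0.72 and 0.13 with intervals that include 0, and Rara, the retinoic acid receptor, stood at 63.4 and 38.0 CPM (-0.74, -1.53 to -0.01). The interferon-stimulated list had 4 genes with at least 20 UMIs, 0 of them past 1.5-fold.

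Dissociation stress genes, the early response genes that tissue digestion raises, differed between the libraries. Of 14, 7 were at least 1.5-fold lower in ABX members and 0 higher (median -0.65), and their summed level was 18448 CPM in NW and 11316 CPM in ABX, against 12260 and 10083 CPM in Foxp3-negative cells and 21421 and 20687 CPM in macrophages. The members were therefore also split at the median stress share, a step added after the data were seen. In the lower part, with 126 NW and 109 ABX cells, 9 of 14 VAT Treg genes were lower and 0 higher (median -0.98), and 71.4% and 45.0% of cells were ST2+. In the upper part, with 192 and 43 cells, 8 of 14 were lower and 0 higher (median -0.70), and 91.1% and 72.1% were ST2+. Suppressive effectors were lower for 4 of 12 genes in the lower part (median -0.34) and for 7 of 10 in the upper part (median -0.83). The median of the proliferation genes was 1.25 over 9 genes in the lower part and -0.10 over 3 genes in the upper part. The stress genes themselves were still lower in ABX for 4 of 13 in the lower part, with 0 higher (median -0.33). In the upper part 3 of 14 were lower and 3 higher (median -0.15). Shares over all genes were not computed for these parts, and the part of stress in the differences was not tested.

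Markers of other cell types were present in the members. All 11 macrophage genes were found in both libraries, at 1933 CPM summed in NW and 1344 CPM in ABX, with 7 of 11 at least 1.5-fold lower in ABX; Foxp3-negative cells held 1791 and 1422 CPM and macrophages 32269 and 32111 CPM. Of 7 B and plasma cell genes, 3 of the 4 with 20 UMIs were lower, and the sum was 6019 and 2055 CPM, with the top NW cells given above included. Of 8 NK and CD8 T cell genes, 5 of the 6 with 20 UMIs were higher, with sums of 161 and 382 CPM and Cd8a at 0 UMIs in NW against 20 in ABX. Members with a UMI of Cd8a, Cd8b1, Trdc or Ncr1 were 7.86% in NW and 14.5% in ABX. Genes of γδ T cells summed to 32.1 and 95.1 CPM, with 2 of the 2 that had 20 UMIs higher, and Il17a at 0, as in Foxp3-negative cells. Of 7 dendritic cell genes, Xcr1 and Clec9a were at 0 by the rule and 1 of the 5 with 20 UMIs was lower, with sums of 5281 and 5869.8 CPM. Lists of group 2 innate lymphoid cells, neutrophils and mast cells, and erythroid cells had no gene with 20 UMIs, and the stromal list summed to 93.8 and 154 CPM. The part of these markers in the differences between the libraries was not tested beyond the limit on other lineages given above.

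At the protein level, the CD25 antibody had a median of 23 UMIs per member in NW and 10 in ABX. It was 27 and 13 in ST2+ and 11 and 7 in ST2- members, against 8 and 6 in Foxp3-negative CD4 T cells and 10 and 9 in macrophages, so the ST2- members stood near the background. The CD4 antibody had medians of 39.5 and 22.5 in members, 61.5 and 60 in Foxp3-negative CD4 T cells and 2 and 1 in macrophages, and at least 10 CD4 antibody UMIs were found in 85.5% of NW members (81.2% to 89.2%) and 71.1% of ABX members (63.2% to 78.1%). For TCRβ the medians were 35 and 19 in members and 18 and 19 in macrophages, so the ABX members stood near the background. Medians of CD44, an activation marker, were 156.5 and 108.5 in members, 161.5 and 133.5 in Foxp3-negative cells and 71 and 59 in macrophages. Those of CD69 were 9 and 5 in members, 7 and 5 in Foxp3-negative cells and 8 and 7 in macrophages, so the members stood near the background. The total of all antibodies was also lower in ABX members, with medians of 353 and 242.5 UMIs, against 364.5 and 309 in Foxp3-negative cells and 210 and 187 in macrophages. Members with at least 10 CD4 and 15 TCRβ antibody UMIs were 240 in NW and 84 in ABX, 1.92% and 0.660% of all cells, a log10 ratio of -0.465 (-0.572 to -0.357). The TCRβ limit of 15 lay under the macrophage medians, so it did not select TCRβ above background. The part of the lower antibody totals of ABX members in this ratio was not tested.

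**Figure D5:**
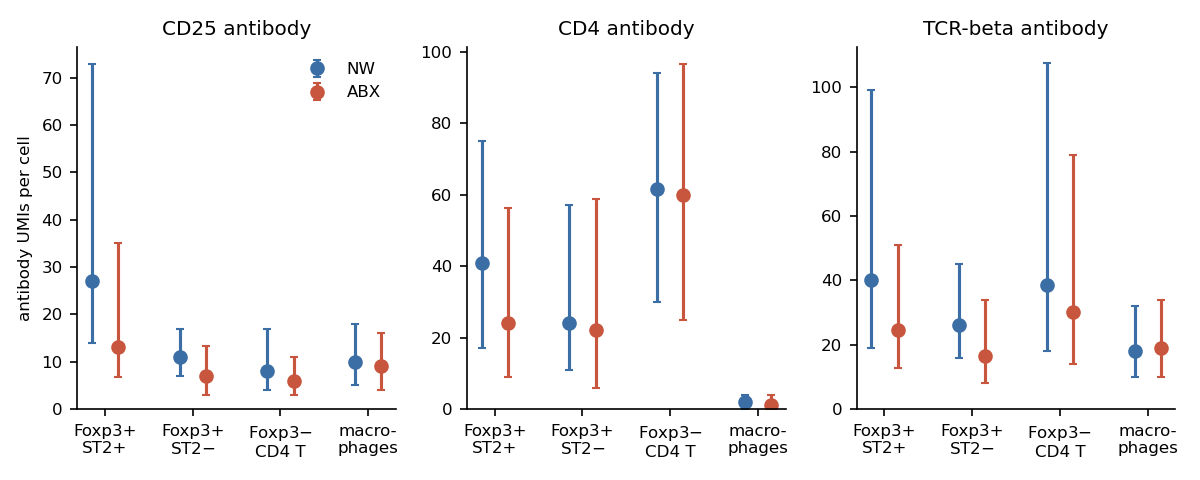
UMIs per cell of the CD25, CD4 and TCRβ antibodies (vertical axis) in ST2+ and ST2- Foxp3+ cells, Foxp3-negative CD4 T cells and macrophages of NW (blue) and ABX (red). Points are medians and bars run from the first to the last quartile boundary of the cells, not an error; CD25 had medians of 27 and 13 in ST2+ cells and between 6 and 11 in the other cells shown.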

How the data were processed

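CD45+ VAT cells of 1 NW and 1 ABX library were analysed, each sample taken as its group from its label. The authors made the deposited UMI counts with the BD Rhapsody WTA Analysis Pipeline (version 1.8) on GRCm38 (mm10); the submitters' processing notes also name R 3.6.0 and Seurat 3.0.1. The deposited files hold whole-number counts per barcode of genes and 10 antibodies, without normalization, for 17662 barcodes and 79855126 gene UMIs in NW and 17785 barcodes and 64801767 in ABX. No columns of samples were left unused (0). Cells passing the study's filters had medians of 5092 (NW) and 3845.5 (ABX) UMIs.

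UMIs were summed over the cells of a set and scaled to CPM of the summed gene UMIs. Ratios carry exact 95% Poisson intervals (from the binomial split of both counts) and shares Clopper-Pearson intervals, computed in Python 3.11.15 with scipy 1.17.1, after a check on simulated counts. Thinning gives the expected value at 1000 UMIs per cell, leaving out 2 NW members with fewer. No doublet caller was run. Doublets were limited by the exclusions of the rule and by the alternative with no UMI of other lineages. The cells, the 27 gene lists and the comparisons were chosen with earlier results of these data known, and the lists are therefore descriptions. Genes named besides the lists are, in ABX over NW, the 10 highest and 10 lowest with at least 100 UMIs, a ratio of at least 1.5 and an interval excluding 1. Against Foxp3-negative cells the 15 highest are named, and for ST2 the 10 highest and 10 lowest by the smaller ratio of both libraries. Where the ratio of 1 library could not be formed, the other was used. Coordinates are from GENCODE M21. Some genes are counted in the lists but not reported here by name.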

Additional observations from a re-analysis of the deposited data

How the results depend on the processing

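No paired analysis was possible because there was 1 library per condition, and for the same reason no replicate was left out. Each share and list median below kept its sign, though with no UMI of other lineages the interval of the share of all cells included no difference. Genes higher in ABX outnumbered those lower in the setting with 1 UMI in each set. Depth limits genes under about 20 UMIs.

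With no UMI of other lineages, the log10 ratio of Foxp3+ cells of all cells was -0.0657 (-0.220 to 0.0884). The median log2 ratio was there -0.64 for the VAT Treg genes, 0.23 for the resting genes and 1.53 for the core genes over Foxp3-negative cells in ABX. The genes at least 1.5-fold higher and lower were 17 and 48. Log2 ratios turned sign there for Ccr3 (0.025), Epsti1 (-0.23), Jchain (0.39), Mki67 (-0.99), Stmn1 (-1.44) and Top2a (-1.37) in ABX over NW, and for Bcl2 (0.16) and Ms4a6b (0.36) in ST2+ over ST2- NW cells. Fewer cells (65 and 57) enter there; the cause was not tested. With the CD4 and TCRβ antibodies required, the log10 ratios were -0.465 of all cells and -0.282 of CD4 T cells, and the medians -1.05 (VAT) and 1.68 (core, ABX). Foxp3 at 2 UMIs gave 1.94 (core, ABX) and 0.87 (resting), at most 10% mitochondrial UMIs 1.93 (core, NW), and means over cells 0.59 (resting). At a 2-fold limit 28 genes were higher and 55 lower, with 20 UMIs 961 and 973, and with 1 UMI in each set 2291 and 1598. Alternatives chosen after seeing the data gave, above the median stress share, -0.102 for the ST2+ share, -0.70 (VAT) and 0.36 (resting), -0.285 for the ST2+ share with 2 Il1rl1 UMIs, and -0.83 (VAT) without cells holding Mki67 or Top2a UMIs. Of the other gene values tried, 1796 lay closer to the main value than its interval reaches on average to either side, and 116 lay further away. These counts pool all settings. With no UMI of other lineages, 42 values of ABX over NW lay closer, 29 lay further away and 6 turned sign. For ST2+ over ST2- cells there, 12 lay closer, 9 further away and 2 turned sign in NW. In ABX 8 lay closer and 15 further away. A turned sign was looked for only in genes at least 1.5-fold apart with an interval excluding no difference.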

Other observations

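Members with UMIs of T cell receptor β variable genes (Trbv) numbered 53 of 318 in NW (16.7%) and 24 of 152 in ABX (15.8%). Trbv2, chosen after its values were seen, was found in 17 of the 53 NW cells, 32.1% (exact 95% interval 19.9% to 46.3%), and in 0 of the 24 ABX cells. Of the 17 cells 16 were ST2+, as were 42 of the 53 NW cells with a Trbv UMI. Because the gene was picked for its values and detection was sparse, no difference between the libraries is read from these counts. Among Foxp3-negative CD4 T cells with a Trbv UMI, 12 of 81 in NW (14.8%) and 14 of 78 in ABX (17.9%) carried Trbv2. The next most frequent gene in NW members, Trbv3, was found in 6 of the 53 cells (11.3%) and in 3 of the 24 ABX cells (12.5%). The 53 NW cells held 72 Trbv UMIs in all, so these counts name no clones.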
